A study of Polypedilum vanderplanki with 84 samples.

Results

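The comparison described here is between Pv11 cells kept in 0.5% NaCl for 24 h and untreated Pv11 cells sampled at the same time, that is, 3 libraries against 3 of the 84 libraries in the series. Pv11 is a single cultured line from the African midge Polypedilum vanderplanki, whose larvae survive almost complete drying, and the line itself survives drying after preconditioning with trehalose. All groups used here were Pv11 cells resuspended in IPL-41 insect medium: Control (no stress) and NaCl (0.5%), each at 24 h and at the earlier times of 1 h and 3 h, and Mannitol (600 mM) and Trehalose (600 mM) at 24 h. Values of cells given a 15 min heat shock at 42 °C or 20 µM Paraquat, a generator of reactive oxygen species (ROS), are shown for 24 h in a figure. The NaCl percentage is that of the labels and the supplementary methods, and the main methods print a higher one. Each group had 3 libraries, which the methods call biological replicates without saying how the cultures were kept apart. The p-values therefore measure the spread between libraries within groups. That spread was estimated in a common fit of the 54 libraries of all 18 stress groups, not from the compared libraries alone. All results rest on this 1 cell line, and since the libraries are bulk RNA, fewer cells expressing a gene and less of its RNA per cell cannot be told apart.

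A rise in external salt draws water out of a cell and lets ions in, and cells respond over hours by changing ion transport, by accumulating compatible solutes and by making proteins that protect other proteins. In P. vanderplanki the protectants known from drying are the sugar trehalose and the late embryogenesis abundant (LEA) proteins, which are intrinsically disordered and shield proteins and membranes as water is lost. Many of the genes coding for LEA proteins sit in clusters of duplicated genes called anhydrobiosis-related gene islands (ARIds), together with Lil genes, which code for Lea-island-located transmembrane proteins. ARId1 is taken here as identifiers g16168 to g16208. The study divided them into Blocks 1 to 4 from the expression in these same libraries. The paper counts more genes in ARId1 than this range lists, so genes called outside the island here may include further members. Identifiers outside the island carry no product names in the files or in the reference table at hand, so no role is given for them unless the study names one.

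The measurement was TPM, a share of the RNA of a library corrected for transcript length and set to the same total in every library, and the transcripts of a gene were summed. The table lists 18248 genes, 17156 with g identifiers and 1092 noncoding RNAs with nc identifiers, of which 9450 had a mean above 1 TPM over the series and were tested. In the 6 libraries between 11938 and 12811 genes were above 0, with 11938 to 12030 in the control libraries and 12624 to 12811 in the NaCl libraries. The 100 highest genes held 48.9 to 52.6% of TPM. Read depth is unknown because TPM keeps none. On log2(TPM + 1), libraries of the same group correlated at 0.991 to 0.994 and libraries of different groups at 0.917 to 0.939. The gene downstream of the strong 121 promoter of this line, g7775, was at 45415, 50531 and 46732 TPM in the control libraries and 43877, 42334 and 37739 TPM in the NaCl libraries. No marker list of the line was available to check its identity further. Of the libraries used for the earlier times 2 stood apart. Control 3 h replicate 2 correlated at 0.944 and 0.969 with the other control 3 h libraries, and NaCl 1 h replicate 2 at 0.968 and 0.964 with the other NaCl 1 h libraries, which correlated at 0.995 with each other. Counts at 3 h and at 1 h are given with and without them.

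After 24 h in NaCl, the ARId1 genes rose together and made up 11.4% ± 0.064 of all TPM (SD, n = 3), against 3.62% ± 0.134 in the control. A larger number of genes outside the island rose as well. There were 698 of them, and together they went from 2.75% ± 0.186 to 9.36% ± 0.202 of TPM. The 1062 lowered genes went from 5.86% ± 0.106 to 2.32% ± 0.0432 of TPM, falls that outnumbered the rises on the deposited values but not after the libraries were scaled to each other. The steepest rises of all, g17498, g17489 and g12482, were outside ARId1. The largest gain in TPM among the raised genes was that of PvLea4 (g16204), a LEA gene inside the island.

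A gene was called when its adjusted p in limma was under 0.05 and its fold change on the TPM + 1 scale was above 2. By this rule 1794 of 9450 genes (19.0%) were called, 732 raised (7.75%) and 1062 lowered (11.2%). A further 3379 genes passed the adjusted p alone, with smaller changes. In 731 of the raised genes every NaCl library lay above every control library, and in 1061 of the lowered genes every NaCl library lay below, which over all tested genes was so in 24.8% and 42.8%. The split between directions depended on the scale. The median log2 change of all genes was -0.17 on the deposited values, and after the libraries were scaled by the median ratio of their genes it was -0.02, with 1053 genes raised (11.1%) and 728 lowered (7.70%). All 732 raised genes were also raised after scaling, and 726 of the 1062 lowered genes were also lowered.

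Rises reached much further than falls. Above 4-fold there were 153 raised and 38 lowered genes, above 8-fold 44 raised and 1 lowered, and above 16-fold 18 raised and 0 lowered. Of the 18, 7 were in ARId1 and 11 outside. Fold changes are on the log2(TPM + 1) scale, which understates the change of genes with low values. The median control level was 8.01 TPM for the raised genes, 27.3 TPM for the lowered genes and 13.5 TPM for all genes tested.

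**Figure D1:**
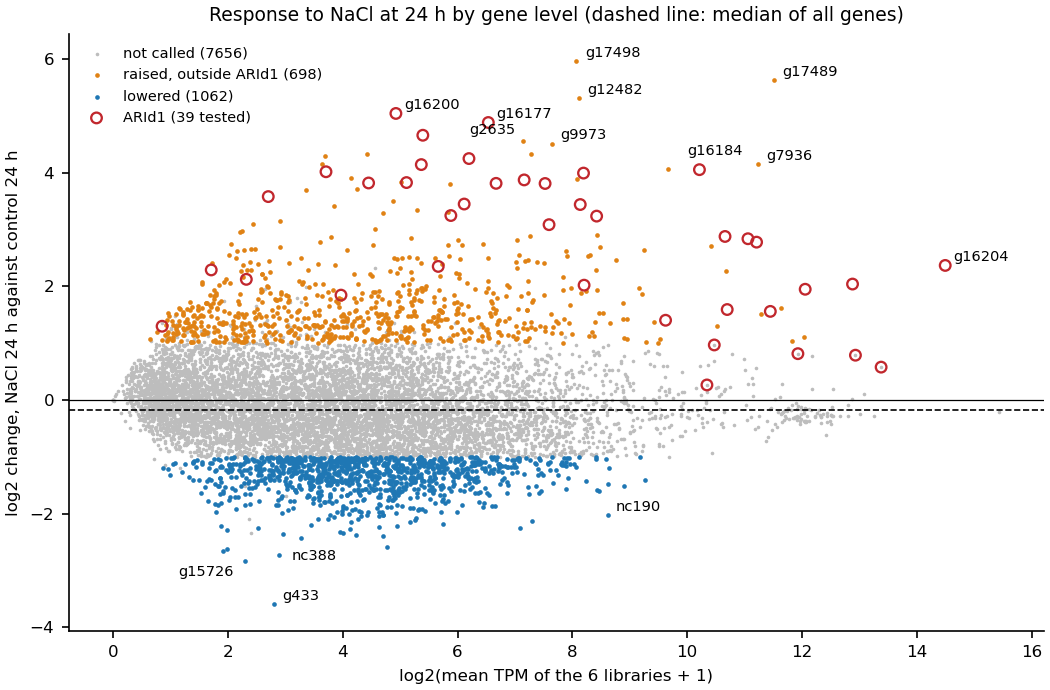
Log2 change of each of the 9450 tested genes at NaCl 24 h against control 24 h (y axis) by log2 of the mean TPM of the 6 libraries plus 1 (x axis). Orange points are the 698 raised genes outside ARId1, blue points the 1062 lowered genes, grey points the genes not called, and red rings the 39 tested ARId1 genes, which all lie above 0; the dashed line is the median of all genes, -0.17.

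Outside ARId1, the 2 largest rises had identifiers close to each other. The values of g17498 were 8.52, 7.64 and 6.35 TPM in the control libraries and 556, 553 and 477 TPM in the NaCl libraries. The groups were far apart, and the ratio of their means was 70.4 (log2 change 5.96 ± 0.19 SE, limma adjusted p = 3.51e-26). The more abundant g17489 was at 126, 109 and 109 TPM in the control and at 5697, 5843 and 5602 TPM in NaCl, a ratio of 49.8 (log2 change 5.63 ± 0.09 SE, limma adjusted p = 5.29e-37). It had the third largest gain in TPM among called genes, after 2 LEA genes of ARId1. Its NaCl level was the highest among the 10 largest rises outside the island.

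The next rises were spread over other identifiers. The gene g12482 went from 10.8, 14.2 and 13.4 TPM in the control to 577, 526 and 525 TPM in NaCl (log2 change 5.31 ± 0.16 SE, limma adjusted p = 1.32e-27). Its neighbour 7 identifiers on, g12489, was near 1 TPM in each control library (0.92, 1.30 and 0.96) and at 40.6, 36.8 and 42.9 TPM in NaCl. Both were thus nearly silent to low in untreated cells. The gene g7936 started from a higher level, 270, 250 and 246 TPM, and reached 4627, 4691 and 4363 TPM. This was the fifth largest gain in TPM among called genes (log2 change 4.15 ± 0.06 SE, limma adjusted p = 3.00e-37). The remaining genes among the 10 largest rises were g2635, g9973, g17267, g17487 and g12345, with log2 changes between 4.15 and 4.56, and their NaCl means lay between 22.5 TPM (g12345) and 383 TPM (g9973).

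**Figure D2:**
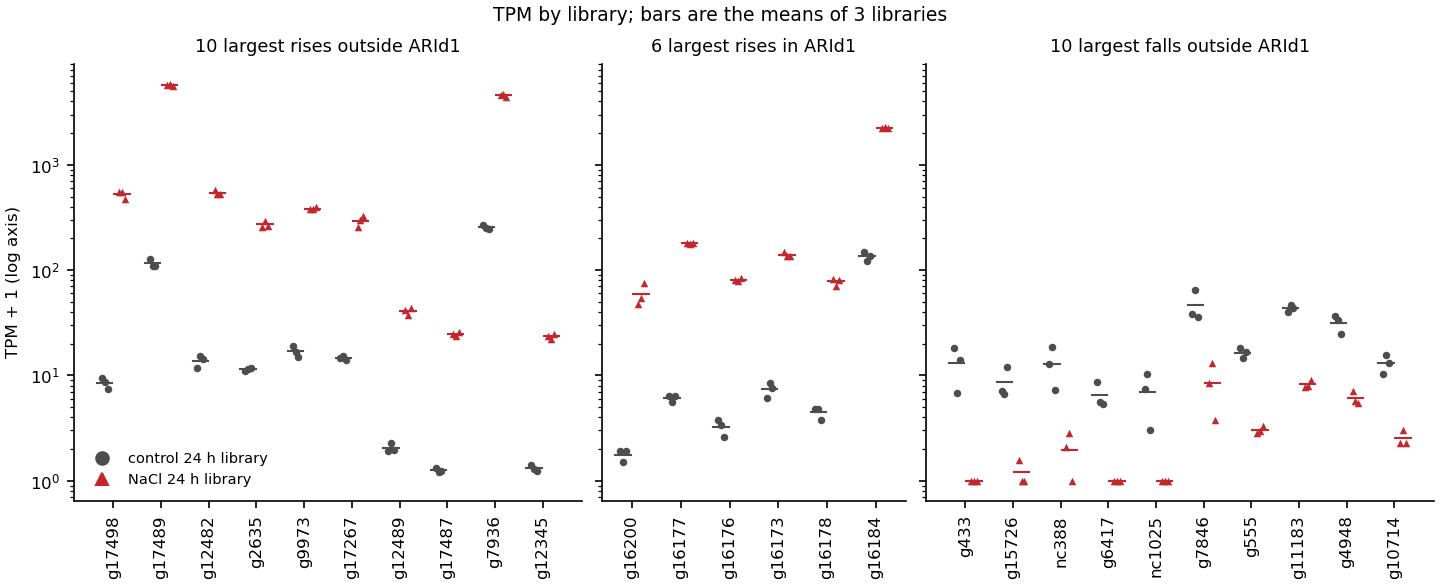
TPM plus 1 on a log axis in each of the 3 control 24 h libraries (grey circles) and 3 NaCl 24 h libraries (red triangles), with bars at the group means, for the 10 largest rises outside ARId1, the 6 largest rises in ARId1 and the 10 largest falls outside it. The genes were picked from called genes whose groups do not overlap. g433, g6417 and nc1025 are listed at 0 TPM in all NaCl libraries.

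Within ARId1, 40 genes were listed and 39 passed the level filter. Of these, 34 were raised (87.2%, against 7.75% of all genes) and 0 were lowered, with a median log2 change of 2.88 where the median of all genes was -0.17. In all 39 every NaCl library lay above every control library, which over all tested genes was so in 24.8%. The 5 genes not called had log2 changes of 0.79 (g16193), 0.26 (g16202), 0.58 (g16203), 0.81 (g16206) and 0.97 (g16207). They were already abundant in untreated cells, between 960 TPM (g16207) and 8547 TPM (g16203) in the control mean. After median ratio scaling 35 were raised. The Blocks were chosen by the study on these libraries, so they are no independent evidence of the direction. Block 1 had 27 of 28 tested genes raised with a median log2 change of 3.35, Block 2 had 3 of 3 (2.12), Block 3 had 2 of 4 (1.47) and Block 4 had 2 of 4 (1.28).

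The steepest rises in the island came from genes that were low in untreated cells. PvLil2 (g16200), a Lil gene at the border of Block 2, was at 0.90, 0.50 and 0.92 TPM in the control libraries and at 46.8, 53.5 and 73.8 TPM in NaCl (log2 change 5.04 ± 0.30 SE, limma adjusted p = 1.19e-17). The Block 1 gene g16177 went from 5.36, 4.59 and 5.36 TPM to 181, 175 and 179 TPM (log2 change 4.88 ± 0.18 SE, limma adjusted p = 3.45e-24). Next to it in the order, g16176 (4.66), g16173 (4.25), g16178 (4.14) and the more abundant g16184 (4.05) followed. For g16184 the control mean was 135 TPM and the NaCl mean 2239 TPM. PvLil6 (g16168), the first gene of the island, changed by 3.82 and PvLil11 (g16198), the first of Block 2, by 2.12, both past the test.

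In absolute terms the LEA genes of Blocks 3 and 4 weighed most. PvLea4 (g16204) was at 7594, 7103 and 7808 TPM in the control and at 38434, 39964 and 37635 TPM in NaCl, a ratio of 5.16 (log2 change 2.37 ± 0.06 SE, limma adjusted p = 8.57e-29). This single gene thus gained more TPM than any other called gene. PvLea5 (g16205) had the second largest gain among called genes. It went from 3187, 2476 and 3225 TPM to 11388, 11724 and 13239 TPM (log2 change 2.04 ± 0.25 SE, limma adjusted p = 3.88e-09). PvLea17 (g16201), at the start of Block 3, rose from a control mean of 46.6 TPM to 515 TPM (log2 change 3.44), and PvLea11 (g16208), the last gene, from 830 to 2489 TPM (log2 change 1.59). In Block 1, g16190 (1752 to 6761 TPM, log2 change 1.95) and g16189 (602 to 4130 TPM, log2 change 2.78) were also among the 6 largest gains of called genes. LEA and Lil genes of the island are close copies of each other, and reads that match several copies were shared among them by an estimate, so single values of near-identical copies are less certain than the sum over the island.

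Of the LEA genes that the study names outside the island, PvLea12a (g17258) was raised at a low level, from 0.51, 0.20 and 0 TPM to 1.72, 2.18 and 2.16 TPM (log2 change 1.30 ± 0.28 SE, limma adjusted p = 1.11e-04). PvLea12b (g17260) was listed at 0 in all control libraries and at 0.43, 0 and 0.27 TPM in NaCl, below the filter. PvLea9a and PvLea9b are not among the genes listed.

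Some raised genes had consecutive identifiers. Outside ARId1 there were 16 runs of at least 3 consecutive identifiers that were all raised, with 70 of the 698 genes, and 19 runs that were all lowered, with 65 genes. After median ratio scaling there were 28 raised runs with 110 genes and 9 lowered runs with 32 genes. The longest was g17481 to g17492, with 12 genes raised by a median of 2.74 on the log2 scale, and g17496 to g17501 followed close behind with 6 genes and a median of 3.50. Both were also raised throughout after scaling.

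Taken as 1 stretch of 21 identifiers, g17481 to g17501 had 19 tested genes. Of these, 18 were raised, against 7.75% of all genes, and their median log2 change over the 19 was 2.81. The stretch was chosen after its values were seen, so its counts are a description. Its sum went from 0.0364% ± 0.00239 of TPM in the control to 0.881% ± 0.0174 in NaCl. By far the most of it was g17489, followed by g17490 (90.4 to 1528 TPM in the means), g17498, g17499 (69.2 to 407 TPM) and g17491 (35.7 to 270 TPM). At the other end g17481, g17484, g17485, g17486, g17487, g17488 and g17500 had control means between 0.14 and 0.58 TPM and NaCl means between 2.18 TPM (g17485) and 23.7 TPM (g17487). The exception was g17494 (9.41 to 11.2 TPM), with a log2 change of 0.24, and g17493 and g17495 were under the filter. Against the same control, the median log2 change in Trehalose at 24 h was 2.45 for g17481 to g17492 and 3.74 for g17496 to g17501. In Mannitol it was 0.91 and 1.30. Set directly against Trehalose, NaCl was higher in 5 and lower in 3 of the 12 genes, and higher in 1 and lower in 2 of the 6. Over all genes it was higher than Trehalose in 8.34% and lower in 8.78%. Against Mannitol it was higher in 9 and 6 and lower in 0, where over all genes it was higher in 4.62% and lower in 9.15%.

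**Figure D3:**
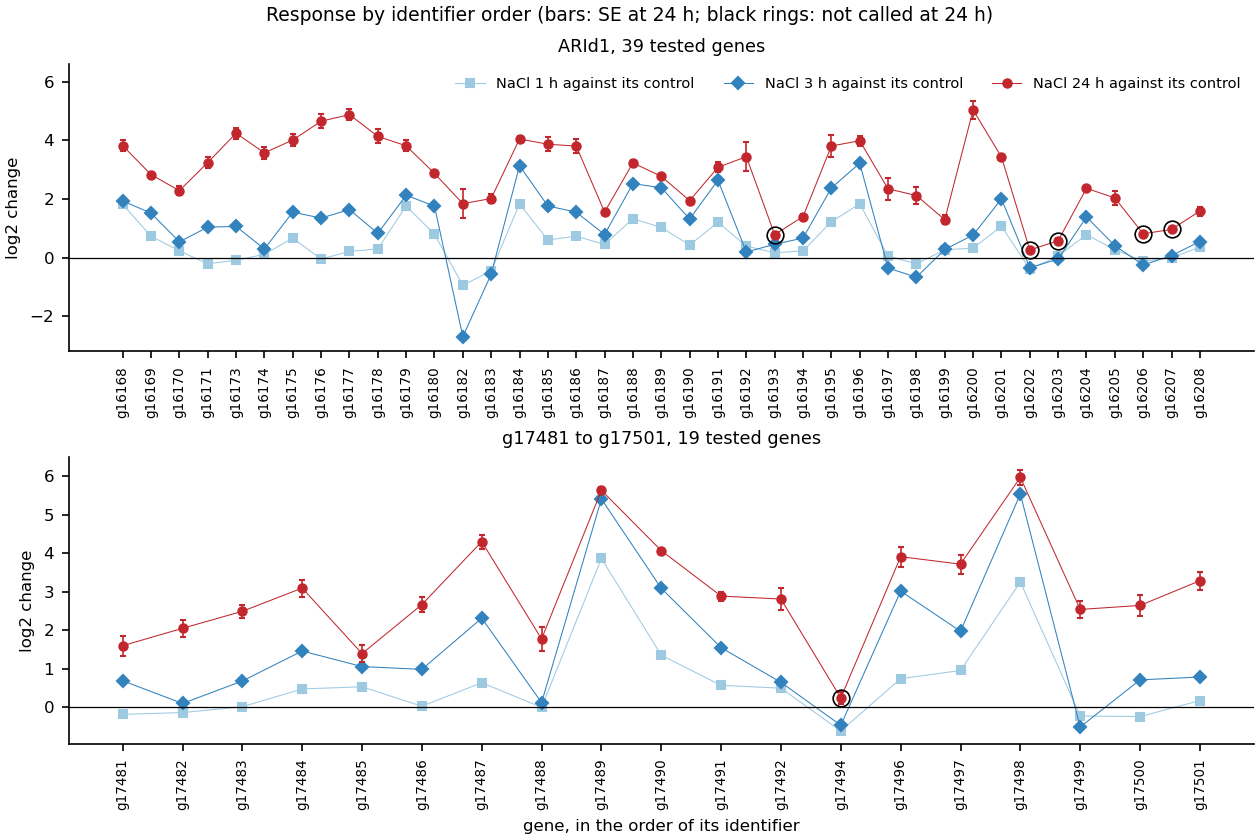
Log2 change in NaCl against the control of the same time at 1 h (light blue), 3 h (blue) and 24 h (red, with SE bars), for the 39 tested ARId1 genes (top) and the 19 tested genes from g17481 to g17501 (bottom), in identifier order. Black rings mark the genes not called at 24 h, 5 in ARId1 and g17494 in the other stretch; on these deposited values the 24 h points lie above the 3 h points in all genes shown, which after median ratio scaling is not so for g16189, g16190, g16191, g16193, g16202, g16203, g17489 and g17498.

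The other long runs changed less. In Trehalose at 24 h the 6 genes from g16355 to g16360 had a median log2 change of 2.73. In NaCl their changes at 24 h were 1.35 to 2.21, with a median of 1.62. At 3 h 1 of them was raised on the deposited values and 4 after median ratio scaling (2 and 3 without control 3 h replicate 2), and at 1 h it was 0 and 2 (0 and 1 without NaCl 1 h replicate 2). The 5 genes from g13864 to g13868 were all raised at all 3 times on both scales, also without the libraries that stood apart, with medians of 1.76, 1.35 and 1.46. They were low, with a sum of 6.48 TPM in the control and 26 TPM in NaCl at 24 h. The 5 genes from g535 to g539 had a median of 1.31 at 24 h. At both earlier times 0 of them were raised on the deposited values, while after scaling 2 were raised at 3 h (4 without control 3 h replicate 2) and 0 at 1 h (1 without NaCl 1 h replicate 2). Among the lowered runs the longest was g14989 to g14994, 6 genes whose sum went from 24.9 to 4.52 TPM, with log2 changes between -1.76 and -1.13 that were past the threshold on both scales.

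The falls were led by genes with low values. The gene g433 was at 17.2, 5.77 and 12.95 TPM in the control and was listed at 0 in all 3 NaCl libraries (log2 change -3.58 ± 0.53 SE, limma adjusted p = 1.92e-07). It was 1 of 3 lowered genes listed at 0 in every NaCl library, with g6417 (7.59, 4.57 and 4.33 TPM in the control) and nc1025 (6.44, 9.36 and 2.04 TPM). No ratio is given for them. A gene with a firmer base was g11183, at 39.3, 45.9 and 42.2 TPM in the control and 6.83, 6.92 and 8.0 TPM in NaCl, 5.86 times lower in the means (log2 change -2.40 ± 0.12 SE, limma adjusted p = 1.68e-20). The genes g555 (15.4 to 2.03 TPM), g4948 (30.7 to 5.07 TPM) and g10714 (12.1 to 1.53 TPM) had log2 changes between -2.43 and -2.36. Calls were less firm for g7846 (log2 change -2.58, limma adjusted p = 0.00669), which was at 37.3, 63.5 and 34.9 TPM in the control and 7.51, 12.0 and 2.74 TPM in NaCl and lost its call when NaCl replicate 3 was left out (adjusted p = 0.0526).

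Among called genes the largest losses in TPM were in moderately abundant genes and 1 noncoding RNA. The gene g16278 went from 845, 885 and 952 TPM to 334, 341 and 335 TPM (log2 change -1.40 ± 0.06 SE, limma adjusted p = 1.94e-23). Next came nc190 (629 ± 33.8 to 154 ± 20.0 TPM, SD, n = 3), g6689 (710 to 247 TPM), g3694 (778 to 385 TPM), g9374 (577 to 206 TPM) and g2647 (532 to 174 TPM). These 6 were picked from called genes whose groups did not overlap. The call of g3694 (log2 change -1.01) sat at the 2-fold limit and was lost after median ratio scaling (-0.83) and without control replicate 3 (-0.99).

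By number of genes, noncoding RNAs leaned upwards, while their summed share of TPM went from 2.31% ± 0.0751 to 2.07% ± 0.0222 (SD, n = 3). Most were low, with a median control level of 1.54 TPM, against 13.5 TPM for all genes tested. Of 1092 listed, 507 were tested. Of these, 65 were raised (12.8%, against 7.75% of all genes) and 23 were lowered (4.54%, against 11.2%). Their median log2 change was 0.35, and against the same control it was 0.57 in Mannitol and 0.15 in Trehalose at 24 h. The count of raised noncoding RNAs was 119 after median ratio scaling and 40 without NaCl replicate 3, so it rested in part on that library. The most abundant of the 3 largest rises was nc480, at 158, 171 and 175 TPM in the control and 1074, 1082 and 992 TPM in NaCl (log2 change 2.64 ± 0.11 SE, limma adjusted p = 6.14e-23). The smaller ones were nc122, from 5.14, 2.05 and 4.11 to 24.1, 24.4 and 35.7 TPM, and nc25, from 7.76, 12.6 and 9.04 to 55.4, 61.6 and 62.4 TPM. The strongest falls were nc388 (11.8, 17.7 and 6.20 TPM against 1.07, 1.83 and 0 TPM), nc1025 and nc168 (8.56 to 0.997 TPM in the means). The fall of nc388 was no longer called without NaCl replicate 3 (adjusted p = 0.0697), without control replicate 2 (adjusted p = 0.0583) or with a pseudocount of 0.1 (adjusted p = 0.0777).

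Of the 4 transcription factors that the study names 1 was called at 24 h, against 19.0% of all genes. In each of the 4 the groups did not overlap, which over all genes was so in 24.8% upwards and 42.8% downwards. Heat shock factor (HSF, g3611), the activator of heat shock genes, was at 152, 123 and 142 TPM in the control and 230, 229 and 263 TPM in NaCl, a log2 change of 0.79 ± 0.19 SE that passed the adjusted p (limma, 6.55e-04) and not the 2-fold limit. The 3 subunits of nuclear factor Y, which together bind CCAAT boxes in promoters, were all lower on the deposited scale. NF-YC (g11889) was called at -1.13 (16.9 to 7.24 TPM), and NF-YB (g5893) at -0.86 (limma adjusted p = 5.28e-04) and NF-YA (g7210) at -0.40 (limma adjusted p = 4.99e-07) passed the adjusted p and stayed under 2-fold. After median ratio scaling 0 of the 4 were called, with NF-YC at -0.98. The lncRNA nc472 in the 121 promoter was at 294, 273 and 272 TPM in the control and 238, 250 and 253 TPM in NaCl (log2 change -0.18, limma adjusted p = 0.469), and its sign turned to 0.00419 after scaling.

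The comparison of times asked which of these changes were already present at 1 h and 3 h, each against its own control. The scale mattered most here, because the median log2 change of all genes was -0.33 at 1 h and -0.75 at 3 h on the deposited values and 0.04 and 0.00 after median ratio scaling. On the deposited values 164 genes were raised at 1 h (1.74%) and 269 at 3 h (2.85%), while 980 (10.4%) and 3510 (37.1%) were lowered. After scaling it was 326 raised (3.45%) and 328 lowered (3.47%) at 1 h and 1144 raised and 1148 lowered at 3 h (12.1% each). Of the 732 genes raised at 24 h, 117 were raised at 1 h (15.98%) and 230 at 3 h (31.4%, and 85.5% of those raised at 3 h), and 490 at neither time. The corresponding counts after scaling were 204 and 516 (27.9% and 70.5%). Of the 1062 lowered genes, 379 were lowered at 1 h and 900 at 3 h (84.7%, and 25.6% of those lowered at 3 h), or 147 and 525 after scaling. Without control 3 h replicate 2, 276 of the 732 were raised and 899 of the 1062 lowered at 3 h on the deposited values, and 534 and 566 after scaling. Without NaCl 1 h replicate 2, 146 were raised and 349 lowered at 1 h on the deposited values, and 233 and 175 after scaling.

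Both ARId1 and the steepest genes outside it held genes raised early and genes raised late. In the island 9 of 39 were raised at 1 h (8 without NaCl 1 h replicate 2) and 20 at 3 h on the deposited values (28 at 3 h after scaling), and the median log2 change was 0.33 at 1 h, 1.04 at 3 h and 2.88 at 24 h. PvLil2 (g16200) had group means of 2.0 TPM at 1 h, 2.9 TPM at 3 h and 58.0 TPM at 24 h in NaCl. PvLea4 (g16204) was at 12691, 21921 and 38677 TPM. Without control 3 h replicate 2, PvLil2 was raised at 3 h, by 1.15 on the deposited values and 1.66 after scaling. The gene g17489 had reached 397 TPM at 1 h and 2985 TPM at 3 h, where its log2 changes of 3.86 and 5.40 compare with 5.63 at 24 h. The difference between the 24 h and the 3 h response of g17489 was 0.23 ± 0.13 SE (limma adjusted p = 0.122) on the deposited values and turned to -0.46 after median ratio scaling (adjusted p = 0.0345), and without control 3 h replicate 2 it was 0.16 and -0.38, neither past the test (adjusted p = 0.327 and 0.118). The genes g17498, g7936, g12345 and nc480 were likewise raised at 1 h, by 3.25, 3.06, 3.23 and 2.27. A late one was g12489, with NaCl means of 0.9 TPM at 1 h and 1.2 TPM at 3 h against 40.1 TPM at 24 h. The NaCl means of g12482 went from 19.3 and 55.8 to 543 TPM, on top of an early rise. It was raised at 3 h by 2.57 without control 3 h replicate 2, and at 1 h by 1.46 without NaCl 1 h replicate 2.

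The change from 3 h to 24 h was tested in the same fit as the difference of the 2 responses. On the deposited values 2377 genes (25.2%) were called, of which 2330 (24.7%) had a higher response at 24 h and 47 (0.497%) had a lower one, and after median ratio scaling the counts were 536 (5.67%) and 553 (5.85%). Without control 3 h replicate 2 they were 1305 and 68 on the deposited values and 349 and 400 after scaling. In ARId1 26 of 39 genes had a higher response at 24 h than at 3 h, 23 without that library, and 19 and 18 after scaling. For PvLil2 the difference was 4.27 ± 0.43 SE (limma adjusted p = 5.26e-10), and 3.89 without that library (adjusted p = 5.24e-09). Genes raised at 3 h, not called at 24 h and different between the times numbered 9 on the deposited values and 216 after scaling (19 and 129 without control 3 h replicate 2). Genes with that pattern downwards numbered 1425 and 239 (742 and 158 without it).

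**Figure D4:**
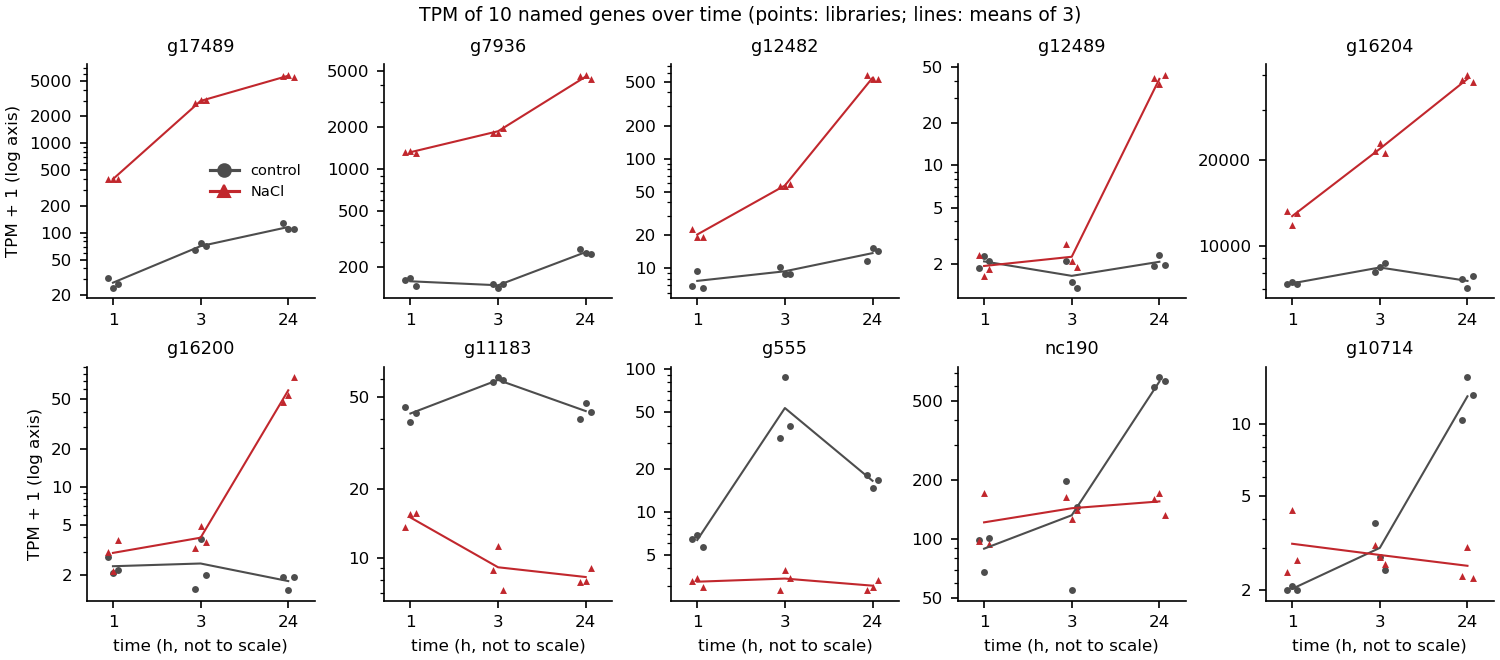
TPM plus 1 on a log axis in control (grey circles) and NaCl (red triangles) libraries at 1, 3 and 24 h for 10 named genes; lines join the means of 3 libraries. g17489 and g7936 are high in NaCl from 1 h, and g12489 and PvLil2 (g16200) reach their high levels only at 24 h. For nc190 and g10714 the groups part at 24 h, where the control libraries are high.

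For some falls the control levels differed between the times, given here as group means without a test. The group means of nc190 were 88.3, 131 and 629 TPM in the control at the 3 times in order, and 121, 142 and 154 TPM in NaCl. For g10714 they were 1.0, 2.0 and 12.1 TPM in the control and 2.1, 1.8 and 1.5 TPM in NaCl. In both the NaCl means moved much less than the control means. For g11183 the control was at 41.5, 58.4 and 42.5 TPM and NaCl at 14.0, 8.1 and 7.2 TPM, lower at each time.

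Only 3 genes were called in opposite directions at 3 h and 24 h on both scales. The gene g15726 was at 4.66, 0.56 and 3.97 TPM in NaCl at 3 h, where the control was listed at 0 in all 3 libraries, and at 0.59, 0 and 0 TPM at 24 h, where the control was at 6.16, 5.67 and 11.04 TPM. The noncoding nc388 showed the same order, with 15.5, 9.23 and 14.5 TPM in NaCl at 3 h and 1.07, 1.83 and 0 TPM at 24 h. The ARId1 gene g16182 went the other way, with a log2 change of -2.69 at 3 h and 1.84 at 24 h. In NaCl it was at 1.00, 6.48 and 1.19 TPM at 3 h and 24.2, 21.3 and 23.7 TPM at 24 h. The difference between the times was called for all 3 without control 3 h replicate 2 as well, on both scales. All 3 are low genes in which 1 or more groups were near 0.

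NaCl was then set directly against the other osmolytes at 24 h, without the control libraries that these groups share. Against Mannitol 1302 genes (13.8%) were called, and NaCl was higher in 437 genes (4.62%) and lower in 865 (9.15%), or 692 (7.32%) and 634 (6.71%) after median ratio scaling. Against Trehalose 1618 genes (17.1%) were called, 788 (8.34%) higher and 830 (8.78%) lower, or 949 (10.0%) and 861 (9.11%) after scaling. In ARId1, 27 of 39 genes were higher in NaCl than in Mannitol and 0 were lower, while 10 were higher and 3 lower than in Trehalose (29 and 0, and 11 and 3, after scaling). The 3 that were lower in NaCl than in Trehalose were g16187, g16197 and PvLil11 (g16198). PvLil11 was at 6.09, 6.6 and 8.71 TPM in NaCl and 23.1, 24.0 and 55.7 TPM in Trehalose (NaCl minus Trehalose -2.01 on the log2 scale, limma adjusted p = 2.24e-07). PvLea4 had means of 38677 TPM in NaCl, 10080 TPM in Mannitol and 14717 TPM in Trehalose, and its NaCl level was above both (differences of 1.95 and 1.40, SE 0.06).

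The genes that rose most outside ARId1 were also set against the other osmolytes. In g17489 the libraries were at 224, 198 and 203 TPM in Mannitol and 613, 562 and 581 TPM in Trehalose, against 5602 to 5843 TPM in NaCl (differences of 4.77 and 3.29 on the log2 scale). In g17267 they were at 10.97, 5.40 and 8.53 TPM in Mannitol and 14.8, 13 and 28.4 TPM in Trehalose, against 258 to 323 TPM in NaCl and 13.1 to 14.2 TPM in the control. The Mannitol libraries lay below the control libraries and the Trehalose libraries around and above them. All 10 of the largest rises outside the island were higher in NaCl than in Mannitol and than in Trehalose, the smallest differences being 2.16 (g2635) and 1.12 (g17498). The noncoding nc480 had means of 1049 TPM in NaCl, 182 TPM in Mannitol and 214 TPM in Trehalose. These genes were named for their rise in the same NaCl libraries, so the direct differences are not independent of that choice. Among the falls, g433 was at 12, 12.1 and 3.08 TPM in Mannitol and 5.35, 5.03 and 0 TPM in Trehalose, and g555 was at 93.0, 73.9 and 69.3 TPM in Mannitol against 1.82 to 2.3 TPM in NaCl.

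**Figure D5:**
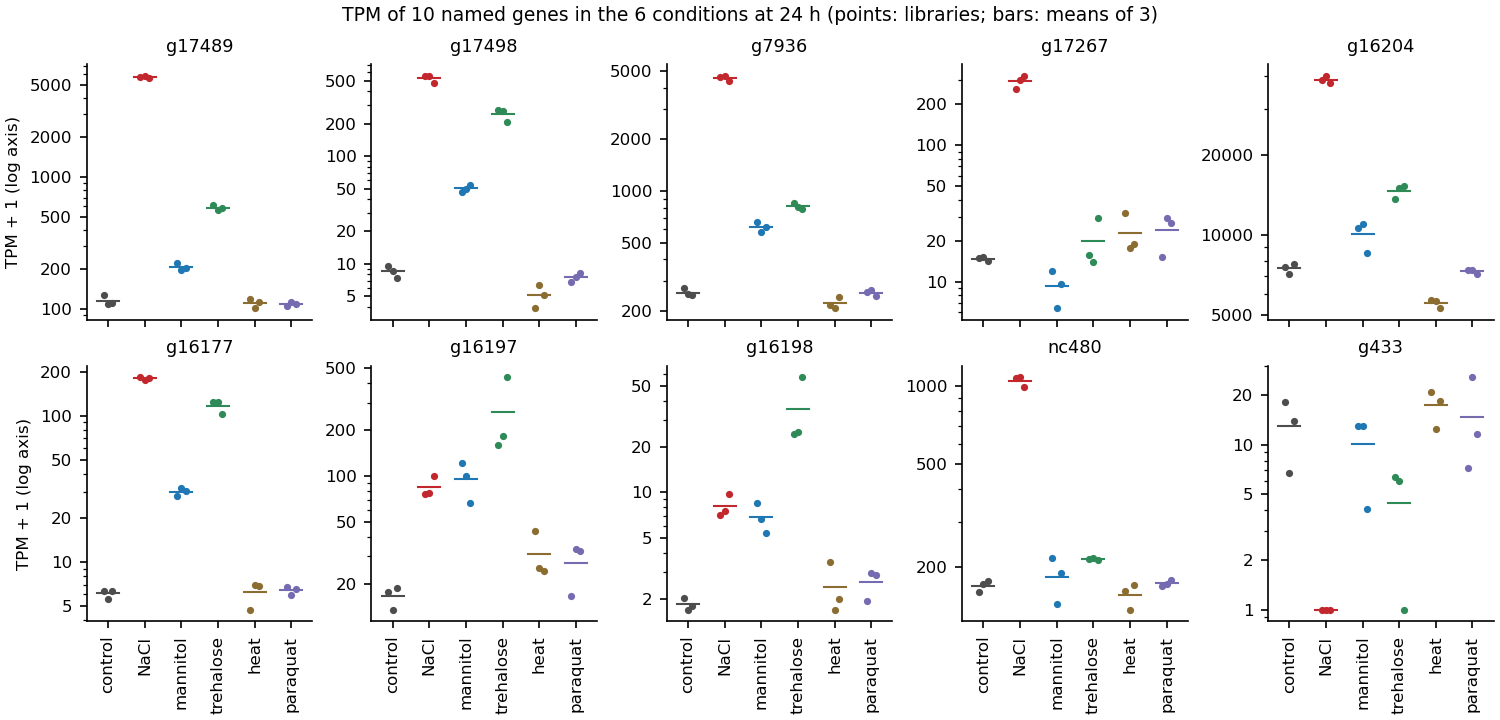
TPM plus 1 on a log axis in the 3 libraries of each of 6 conditions at 24 h, with bars at the means, for 10 named genes. g17489, g17498, g7936, g17267, g16204 and nc480 are highest in NaCl, g16197 and g16198 in trehalose, and g433 is listed at 0 TPM in the 3 NaCl libraries and 1 trehalose library.

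At the level of single transcripts 22728 were tested, and 1613 were raised and 1815 lowered on the deposited values, or 2337 and 1350 after median ratio scaling. Of the 4947 genes with 2 or more tested transcripts, 78 had at least 1 transcript raised and another lowered. Of these 78 genes, 67 were not called as a sum, and 70 showed both directions after median ratio scaling too. An example in ARId1, chosen after its values were seen, was g16187: transcript t75 was at 136, 131 and 153 TPM in the control and listed at 0 in all NaCl libraries, while t1 went from 1.76, 0 and 0 TPM to 831, 844 and 1158 TPM. Another was g2687, which had t9 at 68.5, 240 and 221 TPM in the control and at 0 in all NaCl libraries, and its main transcript t1 at 1608, 1680 and 1777 against 1191, 1175 and 1196 TPM. Transcripts of a gene share most of their sequence and were separated by an estimate, and an exact 0 in such a table can be a failed estimate, so the gene sums above are the firmer values.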

How the data were processed

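Libraries were grouped by their labels into 28 groups of 3, of which the 18 stress groups (54 libraries) entered the fit. The deposited values are TPM per transcript, and 66333 transcripts are listed. Per the labels and the methods the authors mapped reads to coding sequences (the table also holds noncoding RNAs, so more was mapped than that says), estimated abundance with RSEM and tested with DESeq2 and edgeR counts that were not used here. RSEM divides reads among copies and isoforms, and TPM fixes each library's sum, so a rise of abundant genes lowers all others. Here TPM were summed per gene, genes with a mean above 1 TPM over 84 libraries were kept, and log2(TPM + 1) was fitted with limma 3.58.1 (R 4.3.3, variance trend, 1 coefficient per group), with Benjamini-Hochberg adjustment over all 9450 genes. Calls needed an adjusted p under 0.05 and more than 2-fold. The fit was tested on simulated data. Median ratio scaling used the 9254 genes above 0 in every library. Alternatives were the pseudocount, filters, scaling, trend, sample weights, groups fitted, thresholds, single libraries left out and a replicate block. Leaving out control 3 h replicate 2 or NaCl 1 h replicate 2 was added after seeing the data. Members, lists and tests were chosen with earlier results of these data known. Named genes were first taken from called genes with groups not overlapping. They were the 10 largest rises and falls outside ARId1, 6 rises inside, 6 gains and 6 losses in TPM, and 3 noncoding rises and falls. The 3 largest and 3 smallest differences between 24 h and 3 h came from genes called at 24 h and for that difference. All genes named by the study were added whether called or not. No identifier matched the reference table, so lists by product name, coordinates and sequences were not used.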

Additional observations from a re-analysis of the deposited data

Results flagged for a closer look

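The response to NaCl differed between 24 h and 3 h, by the test of that difference in the common limma fit, in many genes. On the deposited values it was higher at 24 h in 2330 genes and lower in 47, and after median ratio scaling higher in 536 and lower in 553.

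Of the named genes, 25 differed between the times on both scales. All values here are the log2 change at 24 h minus that at 3 h on the deposited values. In ARId1 the differences were 4.54 (g16182), 4.27 (g16200), 3.31 (g16178), 3.30 (g16176), 3.24 (g16177), 3.18 (g16173), 2.79 (g16198), 2.70 (g16197), 1.89 (g16168) and 1.02 (g16199). All 10 were higher at 24 h. Outside it the higher ones were 5.24 (g3547), 3.86 (g12489), 2.71 (g12482), 2.42 (nc122), 1.99 (g17487), 1.95 (g9973), 1.83 (g17267) and 1.39 (g17258). The lower ones were -5.91 (nc388), -4.65 (g15726), -2.40 (g22041), -2.32 (nc190), -2.29 (g10714), -1.29 (g2647) and -1.07 (g9374). The difference of g22041 was -1.44 without control 3 h replicate 2. The genes g3547 and g22041 were named for the size of this difference. Both were raised at 24 h: g3547 was at 2.03, 0 and 0 TPM in the control and 21.7, 14.7 and 17.1 TPM in NaCl, and g22041 at 16.4, 10.2 and 15.3 TPM and 52.8, 51.1 and 61.9 TPM.

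Control 3 h replicate 2 stood apart from the other control 3 h libraries. Without it the difference of nc122 (1.72, adjusted p = 0.102) was no longer called, nor were those of g16199 (0.86) and g9374 (-0.90), which fell under 2-fold. Those of g17267 (0.71) and g3547 (4.54, adjusted p = 0.0519) were no longer called after median ratio scaling.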

How the results depend on the processing

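Under adjusted p under 0.001 and a fold above 4, the counts were 147 raised and 32 lowered genes, 8 raised and 3 lowered noncoding RNAs, 94 genes differing between 24 h and 3 h, 82 called alike at 24 h and 3 h, 144 in the contrast with Mannitol and 165 in that with Trehalose, and 28 raised ARId1 genes. Median ratio scaling gave 119 raised noncoding RNAs, 1089 genes differing between the times and, for nc472, a log2 change of 0.00419. Fitting the compared groups alone gave 101 raised noncoding RNAs. Leaving out single libraries gave 614 to 769 raised and 990 to 1168 lowered genes, 34 ARId1 genes throughout, 40 to 78 raised and 20 to 26 lowered noncoding RNAs, 1373 to 2609 genes differing between the times, 1053 to 1220 called alike, and 1290 to 1381 and 1527 to 1640 in the contrasts with Mannitol and Trehalose. The lowest values 40 and 1373 came without NaCl replicate 3 and without control 3 h replicate 2. The replicate block gave 731 raised and 1062 lowered genes, 34 in ARId1, 65 and 23 noncoding RNAs, and 2358 genes differing between the times. Deviations of NaCl and control libraries with the same number correlated at -0.0894, 0.174 and 0.202, and not every library correlated best with its own number. With 3 libraries per group this cannot settle whether the shared numbers pair the libraries. Of 56 tested named genes, all but nc472 kept their direction in each alternative in which they were tested. Under the stricter thresholds 17 of them were no longer called. Depth is unknown, so genes near 0 TPM carry an unstated counting error.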
